A study of Mus musculus with 12 samples.

Results

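The 10 genes described here are those by which enteroendocrine cells, the hormone-secreting cells of the gut epithelium, are usually recognised. They were chosen by symbol (Chga, Chgb, Gcg, Pyy, Insl5, Tph1, Sct, Sst, Neurod1 and Cck) from the 54532 genes of the count table. No measured value served as a rule of choice, but earlier results of these data were known. RNA-Seq was done on pieces of colon from 12 male C57BL/6J mice, wild type and 5 weeks old, in 4 groups of 3. The control group was given neither agent nor dextran sodium sulfate (DSS), an irritant of the colonic epithelium given at 3% in the drinking water. Mice of the model group were given DSS alone. The Rhy group received DSS with rhynchophylline, an alkaloid of Uncaria plants, and the DXM group received DSS with dexamethasone, a synthetic glucocorticoid, at 4 mg/kg. Rhy was dosed at 2, 4 or 8 mg/kg in the colitis experiment, and the sources used here do not say which dose the sequenced mice received. The labels describe the samples only as colon, without a position along it, and all layers of the tissue may be included.

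Enteroendocrine cells are scattered singly in the epithelium and release peptides or serotonin when they sense nutrients, microbial products or mechanical force. In the colon, L cells make peptide YY (Pyy), proglucagon (Gcg) and insulin-like peptide 5 (Insl5), the last mainly in the distal part. Enterochromaffin cells make serotonin with the enzyme tryptophan hydroxylase 1 (Tph1), and D cells make somatostatin (Sst), which restrains the release of other hormones. Chromogranins A and B (Chga, Chgb) are proteins of the secretory granule, secretin (Sct) is found in several of these cell types, cholecystokinin (Cck) is mainly a hormone of the small intestine, and Neurod1 is a transcription factor of the differentiating enteroendocrine cell. In bulk tissue, fewer cells of a type and less RNA per cell cannot be told apart.

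DNA sequence just before the start of the genes most discussed below is shown because Insl5, Pyy, Gcg and Sst, the hormone genes with the largest differences between groups, can be set side by side there by 2 short motifs. The sequences are RefSeq promoter windows on GRCm38.p6 (mm10), written 5′ to 3′ on the strand of the gene. Capitals mark CAGATG, a form of the E-box bound by bHLH factors such as Neurod1, or TGACGTCA, the palindromic cAMP response element. The Insl5, Pyy and Gcg sequences lie outside the gene as drawn in the count table, and for this the Insl5 window was shortened to 136 bases, since its RefSeq start lies 114 bases inside that gene. The RefSeq starts of Sst and Chgb lie 114 and 364 bases inside theirs, and only the 28 bases around the motif are given, which also fall inside the gene as drawn there.
Insl5 (chr4:103026843-103026978, minus strand): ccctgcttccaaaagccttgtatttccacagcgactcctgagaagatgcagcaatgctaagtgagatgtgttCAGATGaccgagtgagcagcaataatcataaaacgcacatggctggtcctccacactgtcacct
Pyy (chr11:102107833-102108082, minus strand): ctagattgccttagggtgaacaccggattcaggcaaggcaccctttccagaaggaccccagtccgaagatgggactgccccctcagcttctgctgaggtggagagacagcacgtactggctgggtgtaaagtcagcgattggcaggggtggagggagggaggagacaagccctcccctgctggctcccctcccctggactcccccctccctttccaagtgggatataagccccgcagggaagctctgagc
Gcg (chr2:62483654-62483903, minus strand): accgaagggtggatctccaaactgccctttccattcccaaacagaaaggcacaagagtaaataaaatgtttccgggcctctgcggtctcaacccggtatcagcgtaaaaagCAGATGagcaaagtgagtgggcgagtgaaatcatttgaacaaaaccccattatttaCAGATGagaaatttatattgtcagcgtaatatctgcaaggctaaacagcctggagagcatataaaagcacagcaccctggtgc
Sst (chr16:23890875-23890902, minus strand): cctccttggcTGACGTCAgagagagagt
Chgb (chr2:132781560-132781587, plus strand): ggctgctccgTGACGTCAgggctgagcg

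Both motifs were searched on both strands in the 250 bases before the RefSeq start, and the motifs do not overlap each other. All 10 genes had a window. CAGATG was found before 4 of them, Gcg (2 copies), Insl5, Sct and Cck, and in 14.4% of all 32851 windows. TGACGTCA was found before 2 of them, Chgb and Sst, and in 1.55% of all windows. In Sst it begins 48 bases before the RefSeq start and in Chgb 72 bases. Pyy held neither motif in its window. A match is a run of letters and not a measured binding site, and no binding or chromatin data were analysed here.

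Between 14346478 and 17749716 reads were counted per library, and 16904 genes, including all 10 described here, passed the filter on low counts. Levels are given as CPM, counts scaled to the library size by TMM, and as the deposited FPKM, which also divides by gene length, where genes are compared with each other. Model 1 and model 2 were nearly alike. The variance between them was 1.91 times that of counting noise, against 8.70 to 41.5 times in the other 65 pairs. Whether these libraries come from separate mice was not tested, and p-values that use both treat them as separate. Both were kept, and results with their counts summed are given where they matter. The libraries of control 3, model 3 and Rhy 1 had 0.165, 1.49 and 0 CPM of Hoxb13, a homeobox gene of the distal colon, where the other 9 had 72.0 to 316 CPM. Mitochondrial transcripts took 6.33% to 25.7% of the counts. The labels do not say that mice of a group were housed or processed separately, so that p-values measure the spread between these libraries.

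Ranked by the median FPKM over the 12 libraries, the order of the genes was Pyy (155), Insl5 (88.1), Sst (62.1), Sct (20.4), Chgb (17.7), Chga (16.4), Gcg (11.3), Tph1 (1.51), Cck (0.826) and Neurod1 (0.454). Hormones of L cells and D cells thus headed the list, and the transcription factor closed it. The ranges of every pair of neighbours in this order overlapped across the 12 libraries. Within single libraries some steps were nonetheless uniform: Pyy lay above Insl5, Gcg above Tph1 and Tph1 above Cck in 12 of 12 libraries. Insl5 lay above Sst in 6 of 12, so the order of these 2 hormones depended on the library.

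The genes also differed in how far they varied. From the lowest to the highest of the 12 libraries, CPM spanned 87.4-fold for Insl5, 55.3-fold for Sst, 54.2-fold for Cck, 13.5-fold for Gcg, 11.4-fold for Sct and 10.5-fold for Pyy. The span was 5.47-fold for Neurod1, 5.08-fold for Chgb, 3.40-fold for Tph1 and 3.35-fold for Chga. The general markers of the cell class and the serotonin enzyme therefore varied less than the peptide hormones. Cck and Neurod1 had few reads, with counts of 1 to 50 and 9 to 59 per library, and the single Cck read of DXM 3 gave 0.0506 CPM with an exact Poisson 95% interval of 0.00128 to 0.282 that covers counting error only.

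**Figure D1:**
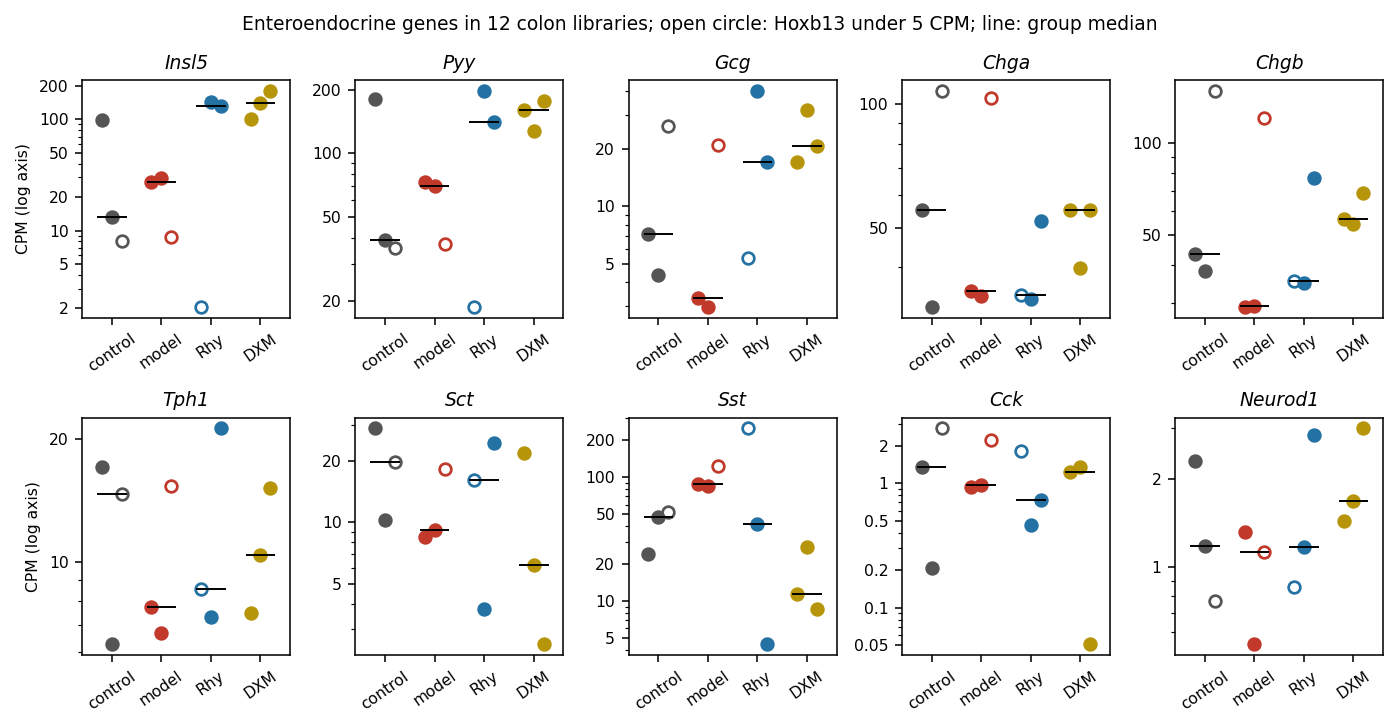
Level of each of the 10 genes as CPM (logarithmic axis) in each library, by group (control, model, Rhy, DXM; 3 libraries each). Horizontal lines are group medians, and open circles are the 3 libraries with Hoxb13 under 5 CPM. In the Insl5 panel the DXM libraries lie between 101 and 180 CPM and the model libraries between 8.76 and 29.7 CPM.

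Among the L cell hormones, Insl5 (chromosome 4, 103017872 to 103026842, minus strand) encodes an orexigenic peptide of the relaxin family. It measured 98.4, 13.3 and 8.07 CPM in control 1 to 3. The model libraries held 27.1, 29.7 and 8.76 CPM. The Rhy libraries held 2.05, 143 and 131 CPM, and the DXM libraries 101, 141 and 180 CPM. The DXM values all lay above every control and model value, whereas the Rhy group held both the lowest value of the series and some of its highest. The group means were 140 ± 39.5 in DXM, 92.0 ± 78.1 in Rhy, 39.9 ± 50.7 in control and 21.9 ± 11.4 CPM in model (SD, n = 3), and the ranges of neighbouring groups in this order overlapped.

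Pyy (chromosome 11, 102106676 to 102107832, minus strand) encodes peptide YY, which slows gut transit and reduces food intake. It measured 181, 39.2 and 35.8 CPM in the control group and 73.0, 70.0 and 37.3 CPM in the model group. In the Rhy group it measured 18.8, 197 and 140 CPM and in the DXM group 160, 127 and 177 CPM. The libraries thus fell into nearly the same order as for Insl5, with Rhy 1 lowest for both genes. The FPKM of Insl5 was 0.0951 times that of Pyy in Rhy 1 and 0.966 times in DXM 2, the lowest and the highest ratio of the series, so the 2 genes moved in the same direction but not in proportion. Over all tested genes, the one whose log2 CPM lay closest to that of Pyy across the 12 libraries was Insl5 (Pearson r = 0.98, a description of 12 libraries that differ in Hoxb13, picked after the values were seen).

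Gcg (chromosome 2, 62474530 to 62483650, minus strand) encodes proglucagon, the source of glucagon-like peptides in L cells. Its libraries held 7.19, 4.38 and 26.4 CPM in control, 3.31, 2.97 and 20.8 CPM in model, 5.39, 40.2 and 17.1 CPM in Rhy, and 17.1, 32.0 and 20.6 CPM in DXM. Unlike Insl5 and Pyy, it was high in control 3 and model 3. The ratio of Gcg to Pyy in FPKM ran from 0.0168 in control 1 to 0.311 in control 3.

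Sst (chromosome 16, 23889573 to 23890958, minus strand), is the D cell hormone. It was highest in Rhy 1, where Insl5 was lowest, and low in Rhy 3 and the DXM libraries, where Insl5 was high. It measured 24.0, 47.4 and 52.5 CPM in control and 88.2, 84.6 and 124 CPM in model. In the Rhy group it measured 247, 42.0 and 4.47 CPM, which is both the highest and the lowest value of the series. In the DXM group it measured 11.5, 27.4 and 8.66 CPM. Every model value lay above every control and every DXM value. The ratio of Sst to Insl5 in FPKM was 121 in Rhy 1 and 0.0342 in Rhy 3.

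Taken as shares of the summed FPKM of the 6 peptide hormone genes (Pyy, Insl5, Gcg, Sct, Cck and Sst), the make-up of the hormone transcripts differed most within the Rhy group. Pyy, Insl5 and Gcg together made up 8.95% in Rhy 1, 89.3% in Rhy 2 and 90.3% in Rhy 3. They made up 88.9%, 89.6% and 97.1% in DXM 1 to 3. In the model group they made up 53.3%, 53.8% and 29.7%, and in the control group 84.4%, 50.5% and 44.8%. Pooled, the 3 L cell genes therefore held more than every model and control share in each DXM library, and Sst held 84.6% in Rhy 1. Taken singly, only Insl5 did so. Gcg took 2.47% to 4.59% in DXM, below model 3 (4.86%) and control 3 (9.25%). The Pyy share of control 1 (56.6%) lay above each DXM share. The summed FPKM itself lay between 167 in control 2 and 593 in Rhy 2.

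**Figure D2:**
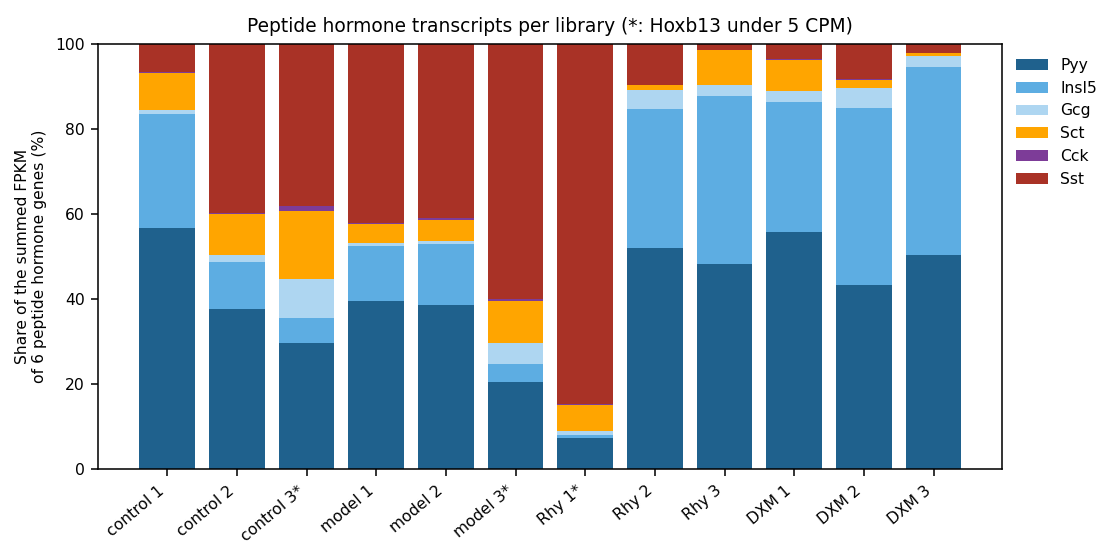
Share (percent) of each of 6 peptide hormone genes in their summed FPKM, 1 bar per library, with asterisks for the 3 libraries with Hoxb13 under 5 CPM. Sst takes 84.6% in Rhy 1 and 1.35% in Rhy 3, and Pyy with Insl5 makes up most of each DXM bar.

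The granule proteins were less variable. Chga (chromosome 12, 102554969 to 102565028, plus strand) measured 32.1 to 55.3 CPM in 10 libraries and stood at 107 CPM in control 3 and 103 CPM in model 3. Chgb (chromosome 2, 132781278 to 132795079, plus strand) measured 29.2 to 77.1 CPM in the same 10 libraries and 148 and 121 CPM in those 2. The FPKM ratio of Chga to Chgb stayed between 0.670 and 1.26, the narrowest of the ratios examined. Chga was, after Chgb, most like Ffar4, a receptor for long-chain fatty acids (r = 0.93 and 0.92 over 12 libraries, picked after the values were seen).

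Tph1, the serotonin enzyme, lay between 6.26 CPM in control 2 and 21.3 CPM in Rhy 3, with group means of 12.7 ± 5.69 in control, 9.92 ± 4.75 in model, 12.4 ± 7.73 in Rhy and 11.0 ± 3.90 CPM in DXM (SD, n = 3). These means differed by less than the spread within a group. Sct lay between 2.53 CPM in DXM 3 and 28.8 CPM in control 1, and its groups overlapped in every comparison. Cck had its 3 highest values, 2.74, 2.20 and 1.80 CPM, in control 3, model 3 and Rhy 1. Neurod1 measured 1.32, 0.546 and 1.13 CPM in model and 1.44, 1.69 and 2.99 CPM in DXM. Its gene overlaps Cerkl and Gm26755, and since no strand setting is stated for the counting, its reads cannot be told apart from theirs with certainty.

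Several of these genes varied along with Hoxb13, while position along the colon itself was not recorded. The 3 libraries with almost no Hoxb13 (control 3, model 3 and Rhy 1) were the 3 lowest of 12 for both Insl5 and Pyy and the 3 highest for Cck. Control 3 and model 3 were the 2 highest for Chga and Chgb, and Rhy 1 was the fourth lowest for both. Rhy 1 and model 3 were the 2 highest for Sst. The 3 libraries came from 3 groups, and all 3 DXM libraries had 195 to 236 CPM of Hoxb13, so the groups were unequal in this respect. Values without these 3 libraries, or with a term for them in the fit, stand beside the comparisons below in which single genes are quoted.

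**Figure D3:**
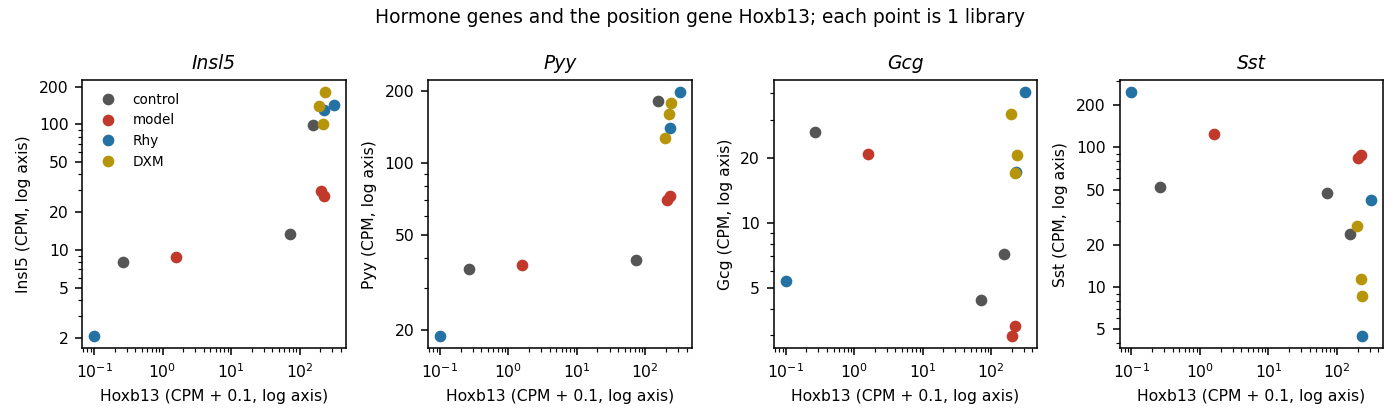
CPM of Insl5, Pyy, Gcg and Sst (logarithmic axis) against CPM of Hoxb13 plus 0.1 (logarithmic axis), 1 point per library, coloured by group. The 3 points at the left of each panel are control 3, model 3 and Rhy 1, which are the lowest for Insl5 and Pyy.

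The comparison of model with control asks what DSS did to these genes. By the quasi-likelihood test of edgeR with Benjamini-Hochberg adjustment over 16904 genes, 0 of the 10 passed at 0.05, and 0 had an unadjusted p under 0.05, against 9.62% of all tested genes. After adjustment 0% of all genes passed. DESeq2 and limma also called 0 of the 10 here after adjustment. On only the groups compared, Sst alone had an unadjusted p under 0.05 in edgeR (1581 of 15936 genes) and in DESeq2 (1746 of 27282). Its adjusted p in that DESeq2 fit was 0.0625. Sst also passed unadjusted in DESeq2 on these groups with model 1 and model 2 summed (866 of 27327 genes). Sst was the only one of the 10 whose groups did not overlap, which 17% of all genes also showed, and its log2 fold change was 1.26 ± 0.94 (SE). The median log2 fold change was -0.42 over the 10 genes, with 9 of them lower in the model group. Over all tested genes it was 0.01, with 50.7% of them higher. For Insl5 the log2 fold change was -0.87 ± 1.12 (SE), for Pyy -0.50 ± 0.74 and for Gcg -0.49 ± 0.88. The signs of these 3 rested on single control libraries, since without control 1 the value was 1.04 for Insl5 and 0.68 for Pyy, and without control 3 it was 0.63 for Gcg. Without control 3 the median over the 10 genes was 0.06, with 5 of them lower, and it was -0.13, with 7 lower, when model 1 and model 2 were summed. Without model 3, 3 of the 10 (Chga, Chgb and Gcg) had an unadjusted p under 0.05, against 7.97% of all genes. Without the libraries of low Hoxb13 the log2 fold change was -1.01 for Insl5, -0.65 for Pyy, -0.91 for Gcg and 1.24 for Sst, and with a term for them it was -0.50, -0.34, -0.60 and 1.27.

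The comparison of Rhy with model asks what the alkaloid did in DSS-treated mice. Again 0 of the 10 genes had an adjusted or an unadjusted p under 0.05, where 0% and 3.72% of all tested genes passed, and 0 had groups that did not overlap, where 11.5% of all genes had. The log2 fold change was 2.07 ± 1.15 (SE) for Insl5, 0.98 ± 0.74 for Pyy, 1.21 ± 0.88 for Gcg and -0.02 ± 0.92 for Sst. The Sst value averaged a Rhy 1 library that was far above and a Rhy 3 library that was far below the model group. It was -2.09 without Rhy 1 and 0.55 without Rhy 3. For Gcg it was 0.33 without Rhy 2 and 2.76 without model 3. Without the 3 libraries of low Hoxb13, which leaves 2 Rhy and 2 model libraries, the log2 fold change was 2.30 for Insl5, 3.21 for Gcg and -1.87 for Sst, with adjusted p from edgeR of 0.535, 0.247 and 0.615. In that setting 4 of the 10 (Chgb, Gcg, Pyy and Insl5) had an unadjusted p under 0.05, against 8.42% of all genes. Without Rhy 1 alone, 3 of the 10 (Pyy, Insl5 and Sst) did, against 6.13% of all genes. With a term for the libraries of low Hoxb13, the log2 fold change was 1.24 for Insl5, 0.57 for Pyy, 2.07 for Gcg and -0.76 for Sst. In that fit 1 of the 10 (Gcg) had an unadjusted p under 0.05 from edgeR, as had 885 of 16904 genes. Gcg also did without model 3 (1007 of 17395 genes), and Insl5 did with genes of any count (972 of 29984).

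The comparison of DXM with model asks what dexamethasone did in DSS-treated mice, and it held the largest log2 fold changes of the 60 (10 genes in 6 comparisons). Insl5 had a log2 fold change of 2.68 ± 1.17 (SE). Its unadjusted p from edgeR was 0.0412 and its adjusted p 0.642. Sst had a log2 fold change of -2.64 ± 0.98 (SE), an unadjusted p of 0.0201 and an adjusted p of 0.637. Thus 0 of the 10 genes passed at an adjusted p under 0.05, as did 0% of all genes, and 2 of 10 had an unadjusted p under 0.05, against 7.69% of all tested genes. Insl5 was 1 of 10 higher, where 4.89% of all genes were, and Sst 1 of 10 lower, where 2.8% were. Which genes passed at an unadjusted p depended on the setting. In edgeR, Gcg passed with the replicate block (1244 of 16904 genes), with a term for low Hoxb13 (1027 of 16904) and without model 3 (909 of 17395). Pyy passed in edgeR with genes of any count (1756 of 29984) and with only the groups compared (2514 of 16287). It also passed in DESeq2 on all libraries (1659 of 29929). Insl5 did not pass in limma, with the replicate block, with a term for low Hoxb13, with model 1 and model 2 summed, or without model 1, model 2, model 3 or DXM 2, and Sst did not pass without DXM 1. Without DXM 3, 0 of the 10 passed (3.11% of all genes), and without the libraries of low Hoxb13, 4 passed (Chgb, Gcg, Insl5 and Sst, against 9.11% of all genes). The log2 fold change was 1.36 ± 0.75 for Pyy, 1.36 ± 0.88 for Gcg and 1.02 ± 0.59 for Neurod1. Groups did not overlap for 4 of 10 genes, Insl5, Pyy and Neurod1 (higher in DXM) and Sst (lower in DXM), against 22.6% of all genes. The exact two-sided permutation test of mean log2(CPM + 0.5) gave p = 0.1 for each of these 4, which is the smallest that 3 against 3 allows, and an adjusted p of 1 over 60 tests (10 genes in 6 comparisons).

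DESeq2, fitted to the 6 libraries of the DXM and model groups alone, called 3 of the 10 genes. Its adjusted p was 3.84e-08 for Insl5, 1.31e-07 for Sst and 0.000277 for Pyy, with log2 fold changes of 2.71, -2.62 and 1.39. It called 590 of 28336 genes in all (2.08%), and on all 12 libraries it called 52 (0.174%), with 0 of the 10 among them. When model 1 and model 2 were summed into 1 library (chosen after seeing the data), DESeq2 on these groups called 172 genes (0.606%), Insl5, Sst and Pyy among them at adjusted p of 2.57e-06, 6.04e-05 and 0.00439. Without the libraries of low Hoxb13, edgeR gave log2 fold changes of 2.32 for Insl5, 1.13 for Pyy and -2.43 for Sst. The adjusted p in edgeR was then 0.467, 0.558 and 0.476. With a term for the libraries of low Hoxb13 in the fit of all 12, the values were 1.74, 0.77 and -2.15, with adjusted p of 0.809, 0.843 and 0.795 in edgeR. The direction of these 3 genes was the same in every setting run, with log2 fold changes of 1.74 to 2.97 for Insl5, 0.77 to 1.53 for Pyy and -3.30 to -2.15 for Sst.

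**Figure D4:**
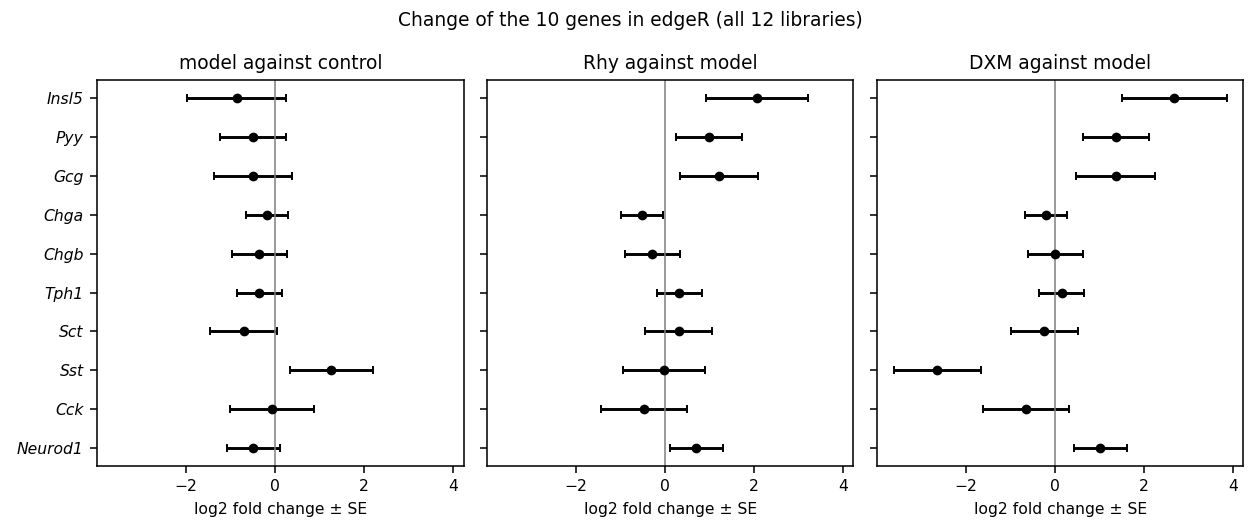
Log2 fold change (horizontal axis) of each of the 10 genes in model against control, Rhy against model and DXM against model, from edgeR on all 12 libraries, with bars of 1 standard error. In DXM against model, Insl5 lies at 2.68 and Sst at -2.64, and Chga and Chgb lie within 1 standard error of 0.

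The other 5 genes in DXM against model (Chga, Chgb, Tph1, Sct and Cck) had log2 fold changes between -0.65 for Cck and 0.15 for Tph1, with standard errors of 0.48 to 0.96. In this fit Chga and Chgb differed by less than their standard error. The median over the 10 genes was 0.08, against -0.01 over all tested genes. The median depended on model 3, since without that library it was 0.84. Without all the libraries of low Hoxb13, Chgb was among the genes with an unadjusted p under 0.05 from edgeR.

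Against the control group the results were similar in kind. In DXM against control, 0 of 10 genes had an adjusted or an unadjusted p under 0.05 (0% and 18.9% of all tested genes), and only Insl5 had groups that did not overlap (18.7% of all genes), with a log2 fold change of 1.82 ± 1.13 (SE). Sst had -1.38 ± 0.95 and its groups overlapped. At an unadjusted p under 0.05 in edgeR, Insl5 passed with genes of any count (3698 of 29984 genes). Sst passed with only the groups compared (2244 of 16134), and Sct without DXM 1 (3625 of 17338). Insl5 and Sst both passed unadjusted in DESeq2 on only the groups compared (2633 of 28107). With a term for the libraries of low Hoxb13 the values were 1.24 for Insl5 and -0.88 for Sst, and without those libraries 1.31 and -1.19. In Rhy against control, 0 of 10 had an adjusted or an unadjusted p under 0.05 (0% and 11.6% of all genes), and 0 had groups that did not overlap (12.3%). The median over the 10 was 0.09. With all 9 DSS-exposed libraries against control, 0 of 10 had an adjusted or an unadjusted p under 0.05 (0% and 17% of all genes), 0 had groups that did not overlap (3.28%), and the median was -0.06. Both medians changed sign with single libraries left out, from -0.42 to 0.34 in Rhy against control and from -0.29 to 0.18 with all DSS-exposed libraries. Without control 1, 2 of the 10 (Pyy and Insl5) had an unadjusted p under 0.05 from edgeR in each comparison of this paragraph. Of 17347 genes, 2325 passed there in Rhy, 4075 in DXM and 3252 in all DSS-exposed against control. Without the libraries of low Hoxb13, Gcg alone of the 10 passed in each, with 3715, 4079 and 4291 of 17253 genes. Sst passed unadjusted in Rhy against control without Rhy 3 (1370 of 17354 genes). Chga passed unadjusted in all DSS-exposed against control without model 3 (2757 of 17395). Model against control shares the model libraries with the drug comparisons, so opposite signs such as those of Sst in model against control and DXM against model are not separate evidence.

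Other genes that bear on enteroendocrine cells were followed in 5 lists with 95 genes, of which 79 passed the filter. Their RNA can also come from other cells of the colon, and its cell of origin was not measured. In each of the 6 comparisons 0 of the 79 had an adjusted p under 0.05. At an unadjusted p under 0.05, 6 passed in model against control, 4 in Rhy against model, 7 in DXM against model and 14 in DXM against control, which is 7.59%, 5.06%, 8.86% and 17.7% of the 79, where 9.62%, 3.72%, 7.69% and 18.9% of all tested genes did.

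Of the 20 transcription factors, 18 were tested, with 1 at an unadjusted p under 0.05 in DXM against model (7.69% of all genes). This was Isl1, a LIM homeobox factor of hormone cells, with a log2 fold change of 2.47 ± 0.92 (SE) and an adjusted p of 0.637 from edgeR. Isl1 counts were low, from 0.121 CPM in model 2 to 3.63 CPM in DXM 1. Foxa2, a forkhead factor, had 1.06 ± 0.53 and Tox3 had -0.72 ± 0.30 in DXM against control. Of the 20 genes of prohormone processing and granules, all 20 were tested, and 17 were higher in the model group than in control, as were 50.7% of all genes, 3 of them (Ddc, Scg2 and Slc18a2) at an unadjusted p under 0.05, where 9.62% of all genes passed in either direction. Scg2, a granin shared with neurons, had a log2 fold change of 1.2 ± 0.38 there. Its value was 37.1 to 41.0 CPM in the model group and 15.9 to 20.1 CPM in the control group. Ddc, the decarboxylase that completes serotonin synthesis, had 0.83 ± 0.27 in Rhy against control, and Scg5, a chaperone of the prohormone convertase 2, had 0.75 ± 0.25 in DXM against control.

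Of the 17 other gut hormone genes, 12 were tested. Guca2b, uroguanylin, had a log2 fold change of -1.03 ± 0.35 (SE) in DXM against model, Pdyn, prodynorphin, had -1.60 ± 0.49 in Rhy against model, and Guca2a, guanylin, had -0.93 ± 0.33 in all DSS-exposed libraries against control. Pdyn counts were low, from 0.396 CPM in Rhy 3 to 5.07 CPM in DXM 1. Of the 15 nutrient and microbial sensors, 13 were tested. In the model group 11 of them were lower than in control, where 50.7% of all genes were higher. Of these 11, 0 had an unadjusted p under 0.05 from edgeR, where 9.62% of all genes passed in either direction. Slc5a1, the sodium-glucose cotransporter, had -0.77 ± 0.23 in DXM against control, Trpa1, an irritant-sensing channel, had -1.38 ± 0.49 in all DSS-exposed libraries, and Olfr78, a receptor of enteroendocrine and other cells, had 2.31 ± 0.89 in DXM against model. Trpa1 counts were low, and both its lowest value (0.417 CPM, control 2) and its highest (2.91 CPM, control 3) lay in the control group. Of the 23 receptor and serotonin clearance genes, 16 were tested. Npy4r, the pancreatic polypeptide receptor, had 1.55 ± 0.31 in DXM against control with an unadjusted p of 0.000349 and an adjusted p of 0.128 from edgeR. Htr4, a serotonin receptor, had 1.99 ± 0.63 and Npy1r, a receptor of peptide YY, had 2.04 ± 0.92 in the same comparison. Npy1r ran from 0.0856 CPM (1 read) in Rhy 1 to 11.1 CPM in DXM 2.

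Cells other than enteroendocrine cells make some of these products. Somatostatin and the granule proteins are also made by enteric neurons, and the 12 neuron markers summed to 229 to 250 CPM in model, 121 to 226 in control, 80.9 to 293 in Rhy and 143 to 313 CPM in DXM. All 12 were higher in model than in control (50.7% of all genes), 1 of them (Nefm) at an unadjusted p under 0.05 (9.62% of all genes). Of 8 islet markers, Ins1, Ins2 and Slc30a8 were at 0 in all 12 libraries and only Ppy passed the filter. Ppy, a hormone gene 5356 bases from Pyy on chromosome 11, measured 2.14 to 66.1 CPM and was lowest in Rhy 1, as was Pyy. Of 11 acinar markers, 2 passed the filter, and Cpa1 and Amy2b were at 0 throughout. The list summed to 55.9 to 96.5 CPM in control, 76.9 to 191 in model, 96.2 to 205 in Rhy and 169 to 307 CPM in DXM.

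RNA of epithelial and muscle markers also differed between the pieces. The 10 markers of colon epithelium summed to 20988 to 33325 CPM in control, 19896 to 23261 in model, 25036 to 27726 in Rhy and 18975 to 23053 CPM in DXM. All 10 were lower in the model and in the DXM group than in control, where 50.7% and 53.8% of all genes were higher. At an unadjusted p under 0.05 from edgeR, 3 of them passed in model and 6 in DXM against control (9.62% and 18.9% of all genes). The 10 smooth muscle markers summed to 3686 to 6833 CPM in control, 4112 to 5305 in model, 6285 to 7050 in Rhy and 5707 to 10020 CPM in DXM, and all 10 were higher in DXM than in model (48.5% of all genes), 5 of them at an unadjusted p under 0.05 (7.69% of all genes). The 6 position genes summed to 32.8 to 220 CPM in control, 41.5 to 381 in model, 48.0 to 445 in Rhy and 280 to 486 CPM in DXM. All 6 were higher in DXM than in model (48.5% of all genes), 0 of them at an unadjusted p under 0.05 (7.69% of all genes). The 10 mast cell markers, which bear on Tph1, summed to 19.3 to 80.6, 27.1 to 36.5, 26.1 to 27.9 and 39.4 to 49.4 CPM in control, model, Rhy and DXM. The 8 tuft cell markers summed to 11.1 to 37.4 CPM over all libraries. The part of these cell types in the differences between DXM and model was not tested.

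The genes most like the 10 as a whole were found by correlating log2 CPM with the mean standardised level of the 10 genes over the 12 libraries. The first were Pygl, a glycogen phosphorylase (Pearson r = 0.92), Slc2a10, a glucose transporter (0.91), Adamdec1, a metalloprotease of intestinal macrophages and fibroblasts (0.90), and Ido1, the tryptophan-degrading dioxygenase (0.89). They were followed by Zc4h2, Fer1l6, Hpd, Igkv11-125, Slitrk6 and Tlr12, the last with r = 0.84. The mean standardised level was highest in model 3 (0.52) and lowest in control 2 (-0.71), so that it ordered the libraries otherwise than any treatment group. These values describe 12 libraries of 4 groups, carry no p, and are the highest of all 16904 genes by construction.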

How the data were processed

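Colonic RNA of 12 mice was sequenced on the HiSeq X10. The authors deposited whole-number read counts per gene without normalization, and FPKM values, which the authors scaled to gene length and library size. Per the labels, HISAT2 2.0.5, featureCounts 1.5.0-p3 and DESeq2 1.16.1 were used with mm10. The annotation and strand setting are not given in the sources used here, and overlapping genes are therefore uncertain. The gene coordinates of all 10 members equal those of GENCODE M21. The DXM group is absent from the study's RNA-Seq methods but is labelled in the deposited data.

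The counts were tested with edgeR 4.0.16 in R 4.3.3, using filterByExpr (minimum count 10), TMM scaling and a two-sided quasi-likelihood test of group means fitted once to all 12 libraries, with Benjamini-Hochberg adjustment over 16904 genes, threshold 0.05. CPM carries no prior count, and log2 CPM for likeness carries a prior count of 2. The code was tested on simulated data. Exact permutation tests used scipy 1.17.1 on log2(CPM + 0.5). Alternatives were DESeq2 1.42.0, limma 3.58.1 on log2(FPKM + 1) and log2(FPKM + 0.1), RLE and upper-quartile scaling, fits of only the groups compared, no filter beyond any count, model 1 and model 2 summed, a term for Hoxb13 under 5 CPM, a replicate block, and each library left out. Leaving out the libraries with Hoxb13 under 5 CPM, and DESeq2 with model 1 and model 2 summed, were added after the data were examined.

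Replicate numbers come from the labels, which do not say what they mark. Deviations from group means were correlated between same-numbered libraries. The correlation was over 0.1 in all 3 pairs of model and control (0.10 to 0.36) and in no other pair of groups for all 3. This check cannot decide whether the numbers pair libraries. The value of 0.36 belonged to control 3 with model 3, which both had almost no Hoxb13 (0.165 and 1.49 CPM). Deviations within a group of 3 also depend on each other, so the 3 correlations are not separate evidence.

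The members and the gene and marker lists were chosen with earlier results of these data known, and the lists were written from general knowledge. All 10 members are named. In each pathway list, the 3 genes with the smallest unadjusted p over the 6 comparisons are named with values, and the 10 genes most like the members.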

Additional observations from a re-analysis of the deposited data

How the results depend on the processing

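No member had an adjusted p under 0.05 in any comparison under edgeR or limma in any setting run. DESeq2 on only the groups compared called 3 members in DXM against model, and 3 again with model 1 and model 2 summed, with log2 fold changes for Pyy, Insl5 and Sst of 1.39, 2.71 and -2.62, and of 1.52, 2.94 and -2.72. The number of all genes with an adjusted p under 0.05 was 0 in each comparison in edgeR, and under DESeq2 on all libraries it was 46 in model against control, 5 in Rhy against model, 52 in DXM against model, 33 in Rhy against control, 1051 in DXM against control and 734 in all DSS-exposed against control. Under DESeq2 on only the groups compared it was 167, 41, 590, 2 and 395 in the first 5 of these, and with model 1 and model 2 summed 4, 18 and 172 in the first 3. With genes of any count in edgeR it was 1 in model against control, 1 in Rhy against control, 13 in DXM against control and 44 in all DSS-exposed against control. With only the groups compared in edgeR it was 1 in model against control and 2 in DXM against model, and limma on log2(FPKM + 0.1) gave 2 in Rhy against model and 2 in DXM against model. Without the libraries with Hoxb13 under 5 CPM it was 2 in DXM against model and 350 in all DSS-exposed against control, and the median log2 fold change of the 10 members moved from 0.32 to 0.99 in Rhy against model and from 0.08 to 0.84 in DXM against model. Leaving out single libraries gave 0 to 1 genes in model against control, 0 to 1 in Rhy against model, 0 to 4 in DXM against control (4 without DXM 1, 1 without DXM 3) and 0 to 27 in all DSS-exposed against control (27 without DXM 1), and the median of the members in DXM against model ranged from -0.19 to 0.84, the latter without model 3. Across libraries left out, the log2 fold change in model against control ranged from -0.90 to 0.68 for Pyy and -1.38 to 1.04 for Insl5, positive only without control 1, and from -2.07 to 0.63 for Gcg, positive only without control 3. It also changed sign in Rhy against model for Sst, where leaving out libraries gave -2.09 to 0.55 (0.21 without model 3, 0.34 without Rhy 2, 0.55 without Rhy 3), RLE scaling 0.00996, DESeq2 on all libraries 0.0105 and DESeq2 on only the groups compared 0.00626. Values of log2 fold change for the members not quoted singly changed sign in 91 of 867 cases, with 0 adjusted p under 0.05. The cause of these differences was not tested, except that the added settings use fewer libraries.

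With the replicate number as a block, 0 genes had an adjusted p under 0.05 in each comparison, and no call of a member changed after adjustment. In DXM against model the log2 fold change was then 2.84 for Insl5 and -2.75 for Sst. Outside model against control, correlations between same-numbered libraries ran from -0.31 to 0.33 in the other 5 pairs of groups. None of these pairs of groups had all 3 correlations over 0.1. The highest were Rhy 3 with DXM 3 (0.33) and Rhy 1 with DXM 1 (0.21).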
